A study of Mus musculus with 12 samples.

Results

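Chl1, Crocc2, Wfdc17, Megf10, Mgam, Ptn and Itih4 are 7 of the 15754 genes counted in mouse white fat cells transfected with a let-7 mimic or a negative control. They were chosen from these same libraries for large and consistent changes, outside the pathways let-7 is best known for. Their changes against control are therefore given as a description, with no test. Tests of the 7 genes are given only for let-7d against let-7e and for the difference between the 2 runs of sample identifiers. The choice did not use the difference between runs. If consistent changes meant changes with both mimics, which is not stated, the choice limits how far let-7d and let-7e can differ. The test between the mimics is therefore not treated as independent of the choice.

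The cells came from the stromal vascular fraction of epididymal fat (eWAT) of male wild-type C57BL/6 mice, 8 weeks old and kept on chow. Every culture was induced with a mix of insulin (850 nM), IBMX (250 µM), dexamethasone (1 µM) and rosiglitazone (1 µM). Rosiglitazone and insulin were kept on afterwards, transfection followed on day 4 and harvest on day 7. The groups are the mmu-let-7d-5p mimic, the mmu-let-7e-5p mimic and the negative control, with 4 libraries each. Sample identifiers fall into 2 runs of numbers that each hold all 3 groups. Replicates 3 and 4 are called ID run 2 here and replicates 1 and 2 ID run 1, and what separates the runs is not stated in the labels. Separate cultures or animals are not stated for the replicates either, so the p-values rest on a spread between libraries that may be technical.

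A microRNA guides an Argonaute protein to messages that pair with its seed, the bases near its 5′ end, mostly in the 3′ untranslated region (3′ UTR), and these messages are then degraded or translated less. Members of the let-7 family share a seed and are known as brakes on growth and on embryonic gene programmes. In fat tissue the family is known from work on insulin sensitivity and fat cell growth. The mature sequences are shown because both mimics carry the same seed, so a site for one is a site for the other. They are written 5′ to 3′ with seed bases 2 to 8 in capitals, from RefSeq (GRCm38.p6, where mmu-let-7d-5p lies at chr13:48536078-48536099 on the minus strand and mmu-let-7e-5p at chr17:17830366-17830387 on the plus strand).
mmu-let-7d-5p: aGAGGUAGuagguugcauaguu
mmu-let-7e-5p: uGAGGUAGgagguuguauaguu
Counted from the 5′ end, with the let-7d base first, they differ as A1U, U9G and C16U, all outside the seed.

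The seed pairs with CTACCTC in a message, and with TACCTC over bases 2 to 7 alone. A match to bases 2 to 8 followed by A is an 8mer, without that A a 7mer-m8, and TACCTC followed by A a 7mer-A1. On the message strand of the longest annotated 3′ UTR, 0 of the 7 genes held any of these, against 17.0% of the 13547 counted genes with an annotated 3′ UTR. Megf10 held TACCTC once, a 6mer, and 26.7% of all genes held a 6mer or longer. These UTRs ran from 201 bases in Wfdc17 to 3703 in Chl1, with a median of 1187 over all genes. Upstream of the 3′ UTR, Megf10 held an 8mer at base 2965 of its 3444 coding bases, in exon 22 of 25. Mgam held a 7mer-A1 at base 5272 of its 5484 coding bases, in exon 47 of 48. A 7mer or 8mer stood there in 20.6% of all genes. The Mgam window is shown because it is the longest match in this gene, with the matching letters and the A after them in capitals (chr6:40765896-40765925, plus strand, GRCm38).
Mgam: tgacgcatgaaaagtttaacaatTACCTCA
A match is a description and does not show that let-7 binds there.

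Total counts per library ran from 15071299 to 33396316, and the first principal component, which separated the 2 ID runs, held 81.9% of the variance. Fold changes are therefore from a fit with ID run as a term, on the log2 scale with a standard error (SE), and levels are counts scaled to library size (CPM). Of 9 adipocyte markers, 8 were among the genes counted and Lep was not. Their summed level in ID run 2 was 3827 to 4557 CPM with let-7d, 4087 to 4837 with let-7e and 3673 to 5428 in controls. In ID run 1 it was 15493 to 15989 with let-7d, 15039 to 16105 with let-7e and 15509 to 16787 in controls. Mimic and control ranges of the sum overlapped within each run, while ID run 2 stood lower throughout. Fabp4 was the largest part of the sum, and single markers did not all follow it. In ID run 2 both let-7d libraries were below both controls for 4 of the 8 markers and above for 0. In ID run 1 they were below for 2 and above for 1. With let-7e the counts were 1 below and 1 above in ID run 2, and 3 below and 1 above in ID run 1. The share of all genes separated in this way within a single run is not given here. Such counts, for these markers and for those of other cell types below, are therefore a description only. Lipe, the hormone-sensitive lipase, was the 1 marker called with let-7d (-0.52 ± 0.107, adjusted p = 0.00365 by edgeR). By that test 3 of the 8 had an unadjusted p under 0.05 downward with let-7d and 1 upward. With let-7e edgeR, DESeq2 and limma-voom called 0 of the 8, with 1 upward and 1 downward at an unadjusted p under 0.05. In bulk RNA, fewer cells of a type and less RNA per cell cannot be told apart.

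The genes were of middle to low abundance, with 52.0% (Chl1) to 69.1% (Wfdc17) of all genes at or above their average level. Per kilobase of exon, the control order in ID run 2 was Ptn (7.46 CPM per kb), Wfdc17 (2.58), Mgam (1.93), Megf10 (1.04), Chl1 (0.811), Itih4 (0.504) and Crocc2 (0.206). In ID run 1 it was Itih4 (11.7 CPM per kb), Wfdc17 (7.54), Megf10 (1.81), Crocc2 (1.48), Ptn (0.477), Mgam (0.392) and Chl1 (0.289). Ptn and Itih4 changed places between the top and the lower end of the order. Chromosome 6 carries 3 of the 7 genes, Ptn, Mgam and Chl1, and it holds 5.11% of the genes counted. Ptn and Mgam are 3818611 bases apart.

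Chl1, Crocc2 and Wfdc17 were higher with both mimics, and Megf10, Mgam, Ptn and Itih4 lower. Within both ID runs, the 2 mimic libraries lay wholly on one side of the 2 control libraries for 7 of 7 genes with either mimic, above for 3 and below for 4. Over all genes, 23.8% did so with let-7d (10.4% above, 13.4% below) and 19.1% with let-7e (8.70% above, 10.4% below). The 7 genes were chosen on these contrasts, so nothing is read from those shares.

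**Figure D1:**
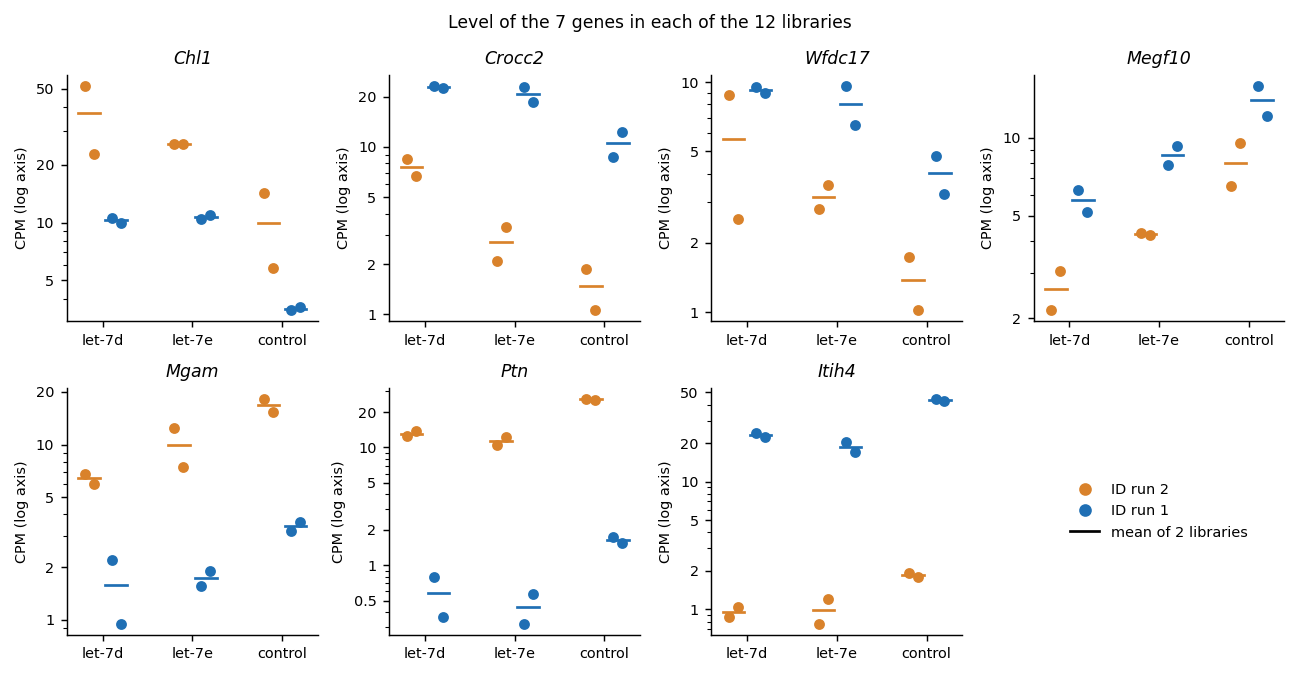
Level of each gene in CPM (log axis) in the 12 libraries, by group, with ID run 2 in orange and ID run 1 in blue; points are libraries and bars the mean of 2. In each colour, the let-7d and let-7e points lie above control for Chl1, Crocc2 and Wfdc17 and below it for Megf10, Mgam, Ptn and Itih4.

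Chl1 (chromosome 6, 103510586 to 103750211, plus strand, GRCm38) encodes the close homologue of L1, a cell adhesion molecule of the immunoglobulin superfamily known from axon growth. Its level in ID run 2 was 51.8 and 22.9 CPM with let-7d, 25.8 and 25.6 with let-7e, and 14.2 and 5.77 in controls. Its level in ID run 1 was 10.6 and 10.0 CPM with let-7d, 10.5 and 10.9 with let-7e, and 3.49 and 3.62 in controls. Control replicate 3 (14.2 CPM) was above every ID run 1 library of any group, so mimic and control overlapped across runs and separated only within them. The log2 fold change was 1.77 ± 0.27 (SE) with let-7d, a 3.41-fold higher level, and 1.46 ± 0.27 with let-7e, 2.75-fold. Without let-7d replicate 3, the highest library, the let-7d value was 1.33.

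Crocc2 (chromosome 1, 93168725 to 93231072, plus strand) is named for its likeness to rootletin, the coiled-coil protein of the ciliary rootlet. Crocc2 in ID run 2 stood at 8.43 and 6.74 CPM with let-7d, 2.09 and 3.33 with let-7e, and 1.88 and 1.06 in controls. Crocc2 in ID run 1 stood at 23.2 and 22.6 CPM with let-7d, 22.9 and 18.5 with let-7e, and 8.73 and 12.3 in controls. The mimics were close to each other in ID run 1, whereas let-7d stood well above let-7e in ID run 2. Crocc2 had a log2 fold change of 1.61 ± 0.25 with let-7d, 2.37 by ID run 2 libraries alone and 1.16 by those of ID run 1. With let-7e it was 0.94 ± 0.25, 0.85 by ID run 2 libraries alone and 1.03 by those of ID run 1. Whether the mimic effect differed between runs was not tested. Markers of ciliated epithelium (4 of 6 among the genes counted, without Foxj1 and Tekt1) summed in ID run 2 to 7.46 to 12.7 CPM with let-7d, 10.6 to 11.6 with let-7e and 8.61 to 10.1 in controls. In ID run 1 the sums were 2.09 to 3.32 with let-7d, 2.37 to 2.67 with let-7e and 2.78 to 3.92 in controls. Between the runs, the sums were higher and Crocc2 lower in ID run 2. Within ID run 2 the let-7d range held the control range, and both let-7e libraries stood just above the controls. In ID run 1 the let-7d and control ranges overlapped, and both let-7e libraries stood below the controls. The part of ciliated cells in the Crocc2 values was not tested.

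Wfdc17 (chromosome 11, 83703991 to 83706268, plus strand) encodes a small secreted protein with a whey acidic protein (WAP) domain, known in mouse from activated microglia and macrophages. Levels of Wfdc17 in ID run 2 were 8.81 and 2.53 CPM with let-7d, 2.80 and 3.56 with let-7e, and 1.73 and 1.02 in controls. Levels of Wfdc17 in ID run 1 were 9.55 and 8.94 CPM with let-7d, 9.65 and 6.49 with let-7e, and 4.77 and 3.27 in controls. Let-7d replicate 4 (2.53 CPM) was the low library of its group and lay below both ID run 1 controls. The log2 fold change was 1.56 ± 0.31 with let-7d and 1.06 ± 0.32 with let-7e. Without let-7d replicate 3 the let-7d value was 1.10.

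Of 15 macrophage markers, 14 were among the genes counted and Cx3cr1 was not. Their summed level in ID run 2 was 204 and 88.8 CPM with let-7d, 79.8 and 108 with let-7e, and 58.8 and 39.4 in controls, so it was higher in every mimic library, as Wfdc17 was. In ID run 1 it was 468 and 442 CPM with let-7d, 501 and 332 with let-7e, and 456 and 444 in controls, where the groups overlapped while Wfdc17 did not. Lyz2 (1.10 ± 0.341, adjusted p = 0.0374), Cd68 (0.69 ± 0.222, adjusted p = 0.0457) and Mpeg1 (0.55 ± 0.171, adjusted p = 0.0381) rose with let-7d in edgeR's test. The list did not move as one. In ID run 2 both let-7d libraries were above both controls for 11 of the 14 and below for 0. In ID run 1 they were above for 5 and below for 7, among them C1qb at 21.6 and 20.9 CPM with let-7d, against 30.5 and 29.2 in controls, and Csf1r at 17.8 and 18.9, against 24.0 and 27.7. DESeq2 called 1 of the 14 and limma-voom 2. With let-7e, edgeR called 0, with 1 at an unadjusted p under 0.05, and DESeq2 and limma-voom also called 0. The part of these cells in the Wfdc17 values was not tested.

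**Figure D2:**
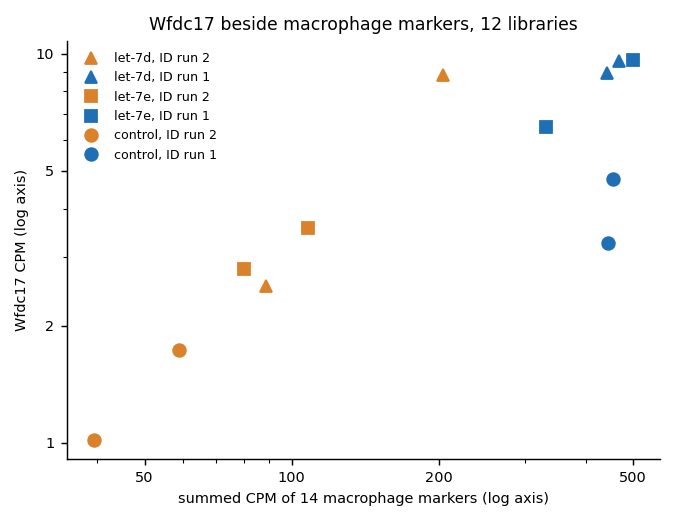
Wfdc17 against the summed level of 14 macrophage markers, both in CPM on log axes, 1 point per library, shaped by group and coloured by ID run (ID run 2 orange, ID run 1 blue). In ID run 2 both measures are higher in the mimic libraries than in controls, and in ID run 1 Wfdc17 is higher at overlapping macrophage levels (332 to 501 CPM with the mimics, 444 to 456 in controls).

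Megf10 (chromosome 18, 57133090 to 57297467, plus strand) encodes a receptor with EGF-like repeats through which astrocytes engulf synapses and dying cells, and which acts in muscle satellite cells. The ID run 2 libraries held Megf10 at 2.15 and 3.05 CPM with let-7d, 4.29 and 4.22 with let-7e, and 6.50 and 9.53 in controls. The ID run 1 libraries held Megf10 at 6.30 and 5.17 CPM with let-7d, 7.82 and 9.28 with let-7e, and 15.9 and 12.1 in controls. Both runs gave the same order, with let-7d lowest, let-7e between and control highest, and no overlap between neighbours. The log2 fold change was -1.46 ± 0.15 with let-7d, a 2.74-fold lower level, and -0.82 ± 0.14 with let-7e, 1.76-fold lower.

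Marker sums of 2 other cell types were also lower in every mimic library than in the controls of its run. Smooth muscle and pericyte markers (7 of 7 counted) summed in ID run 2 to 4894 to 5342 CPM with let-7d, 5177 to 5307 with let-7e and 6218 to 6520 in controls. The sums for ID run 1 were 2839 to 2965 CPM with let-7d, 2610 to 2865 with let-7e and 3173 to 4123 in controls. Skeletal myogenic markers (3 of 8 counted, without Pax7, Myf5, Myod1, Myog and Myh3) summed in ID run 2 to 225 to 257 CPM with let-7d, 246 to 248 with let-7e and 266 to 285 in controls.

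For the myogenic markers, the ID run 1 sums were 145 to 155 CPM with let-7d, 142 to 153 with let-7e and 189 to 247 in controls. Called lower by edgeR were Acta2 and Myh11 of smooth muscle with both mimics and Notch3 with let-7e. Acta2 was the largest part of the smooth muscle sum and Des of the myogenic sum, and not every marker fell. In ID run 2, 3 of the 7 smooth muscle markers were below both controls with let-7d and 5 with let-7e, and the rest overlapped. In ID run 1 these numbers were 6 and 5. Chrna1 of the myogenic list overlapped controls in ID run 2 and was above both with let-7d in ID run 1. Of the skeletal myogenic list, Acta1 was called lower with both mimics and Des with let-7d, and of the glia list Ngfr with both. The other glia markers were not called, and 2 of the 5 were above both controls with either mimic in ID run 1. Whether the cultures held such cells, and their part in the Megf10 values, was not tested.

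Mgam (chromosome 6, 40628831 to 40769123, plus strand) encodes maltase-glucoamylase, the alpha-glucosidase of the intestinal brush border that frees glucose from starch fragments. Mgam in ID run 2 stood at 6.84 and 5.98 CPM with let-7d, 12.4 and 7.43 with let-7e, and 18.2 and 15.4 in controls. Mgam in ID run 1 stood at 2.19 and 0.953 CPM with let-7d, 1.56 and 1.91 with let-7e, and 3.21 and 3.62 in controls. The let-7d libraries lay below let-7e in ID run 2, and the mimics overlapped in ID run 1. Mgam had a log2 fold change of -1.35 ± 0.19 with let-7d and -0.81 ± 0.18 with let-7e.

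Ptn (chromosome 6, 36714929 to 36810220, minus strand) encodes pleiotrophin, a secreted heparin-binding growth factor whose receptors include the phosphatase Ptprz1, the kinase Alk and syndecans. Ptn was found in ID run 2 at 12.4 and 13.8 CPM with let-7d, 10.6 and 12.2 with let-7e, and 25.8 and 25.4 in controls. Ptn was found in ID run 1 at 0.796 and 0.363 CPM with let-7d, 0.319 and 0.567 with let-7e, and 1.75 and 1.53 in controls. The ID run 1 values rest on 12 and 8 reads with let-7d, 8 and 11 with let-7e, and 37 and 22 in controls. The log2 fold change was -1.06 ± 0.14 with let-7d and -1.27 ± 0.14 with let-7e. In ID run 2 alone it was -0.95 and -1.17, and in ID run 1 alone, at those few reads, -1.58 and -1.92.

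Itih4 (chromosome 14, 30886476 to 30902353, plus strand) encodes inter-alpha-trypsin inhibitor heavy chain 4, a plasma protein made mainly by liver and raised in the acute-phase response. Itih4 libraries of ID run 2 stood at 0.870 and 1.04 CPM with let-7d, 0.775 and 1.20 with let-7e, and 1.92 and 1.80 in controls. Itih4 libraries of ID run 1 stood at 24.1 and 22.4 CPM with let-7d, 20.5 and 17.0 with let-7e, and 44.3 and 42.4 in controls. The mimic libraries stood clearly below control in each run, although the ID run 2 values rest on 23 to 51 reads. Itih4 had a log2 fold change of -0.91 ± 0.10 with let-7d and -1.16 ± 0.10 with let-7e. These carried the smallest SE of the 7 genes.

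**Figure D3:**
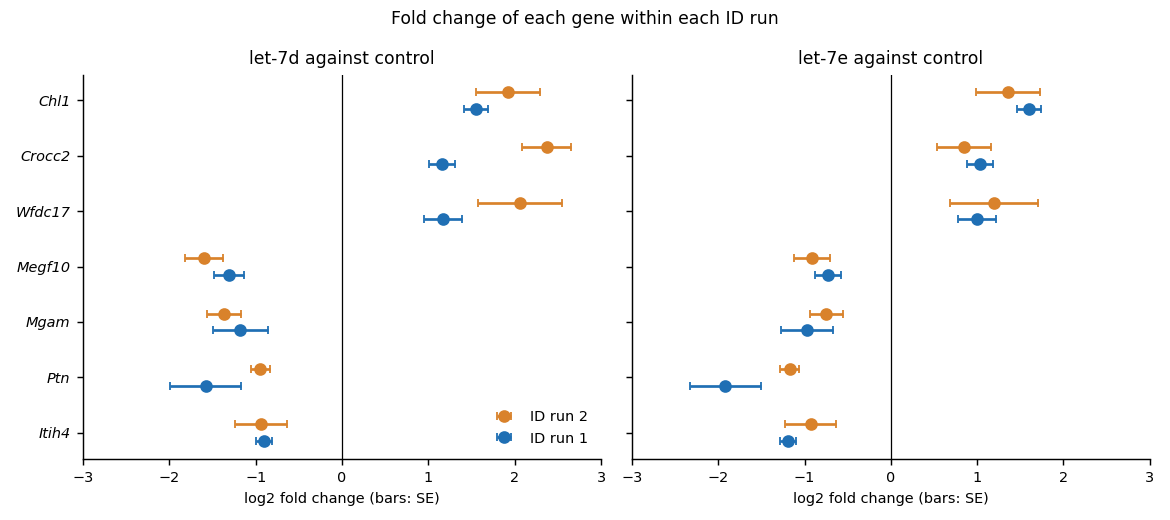
Log2 fold change of each gene against control, let-7d at left and let-7e at right, fitted within ID run 2 (orange) and ID run 1 (blue); bars are the SE. Every value for Chl1, Crocc2 and Wfdc17 is above 0 and every value for Megf10, Mgam, Ptn and Itih4 below 0, with the widest gap between runs for Crocc2 with let-7d (2.37 in ID run 2, 1.16 in ID run 1).

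The direct comparison of the mimics asked whether let-7d and let-7e moved these genes to different levels. The genes were chosen for consistent changes. If that meant changes with both mimics, the number called here was in part set by the choice. None of the 7 genes was called at an adjusted p under 0.05 in edgeR's test over all genes, in which 24 genes (0.152%) were called. By the same test 4 of the 7 had an unadjusted p under 0.05. The share of all genes under that unadjusted limit is not given here, so nothing is read from the 4. Megf10 was lower with let-7d than with let-7e by a log2 difference of -0.64 ± 0.15 (95% interval -0.97 to -0.31, adjusted p = 0.135 by edgeR). It was the one gene of the 7 whose let-7d and let-7e libraries did not overlap in either run, as was so for 12.9% of all genes (5.36% higher with let-7d, 7.50% lower). DESeq2 called it (-0.65, adjusted p = 0.0183), as did edgeR on the libraries of those 2 groups alone (adjusted p = 0.0417), and limma-voom called none of the 7.

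Crocc2 was higher with let-7d by 0.68 ± 0.23 (95% interval 0.20 to 1.16, adjusted p = 0.347 by edgeR), 1.52 by ID run 2 libraries alone and 0.13 by those of ID run 1. Mgam differed by -0.54 ± 0.19 (interval -0.95 to -0.12, adjusted p = 0.402) and Itih4 by 0.25 ± 0.11 (interval 0.03 to 0.48, adjusted p = 0.481). The remaining genes had intervals that include 0. These ran from -0.19 to 0.81 for Chl1, from -0.09 to 1.09 for Wfdc17 and from -0.09 to 0.52 for Ptn. For Chl1 and Wfdc17 these intervals still allow sizeable differences, and a p that misses the threshold does not show that the mimics act alike.

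The ID runs differed far more than the groups for several of the genes. All 7 were called between ID run 2 and ID run 1 in edgeR's test, 3 higher and 4 lower in ID run 2. Of all genes 81.7% were called (41.7% higher, 40.0% lower), so the count is near the background. Itih4 was 22.3-fold lower in ID run 2 (log2 -4.48 ± 0.093, adjusted p = 6.63e-16), and 0.292% of all genes differed at least as much. Ptn was 19.6-fold higher (4.29 ± 0.14, adjusted p = 3.87e-14), which 0.432% of genes matched. Mgam was 5.06-fold higher (2.34 ± 0.16, adjusted p = 5.93e-10) and Crocc2 5.02-fold lower (-2.33 ± 0.20, adjusted p = 1.17e-08). For these 4 genes the 6 libraries of one run did not overlap the 6 of the other, as held for 62.0% of all genes.

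Chl1 was 2.92-fold higher in ID run 2 (1.55 ± 0.21, adjusted p = 3.41e-06). Wfdc17 was 2.20-fold lower (-1.14 ± 0.25, adjusted p = 0.000432) and Megf10 1.95-fold lower (-0.96 ± 0.12, adjusted p = 1.18e-06). The direction between runs was not tied to the direction with the mimics, since Chl1 rose and Crocc2 and Wfdc17 fell in ID run 2 although all 3 were higher with the mimics. Beside these values, all 8 adipocyte markers counted were lower in ID run 2, from -3.60 for Retn to -1.46 for Cfd, as were 13 of 14 macrophage markers. Other lists did not fall as a whole. Fibroblast and precursor markers were called 5 higher and 2 lower, and smooth muscle and pericyte markers 4 higher and 3 lower. All 4 ciliated epithelium markers counted were called higher. Mesothelium, endothelium, glia and skeletal myogenic markers were called in both directions. The part of any of these cell types in the run differences was not tested.

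**Figure D4:**
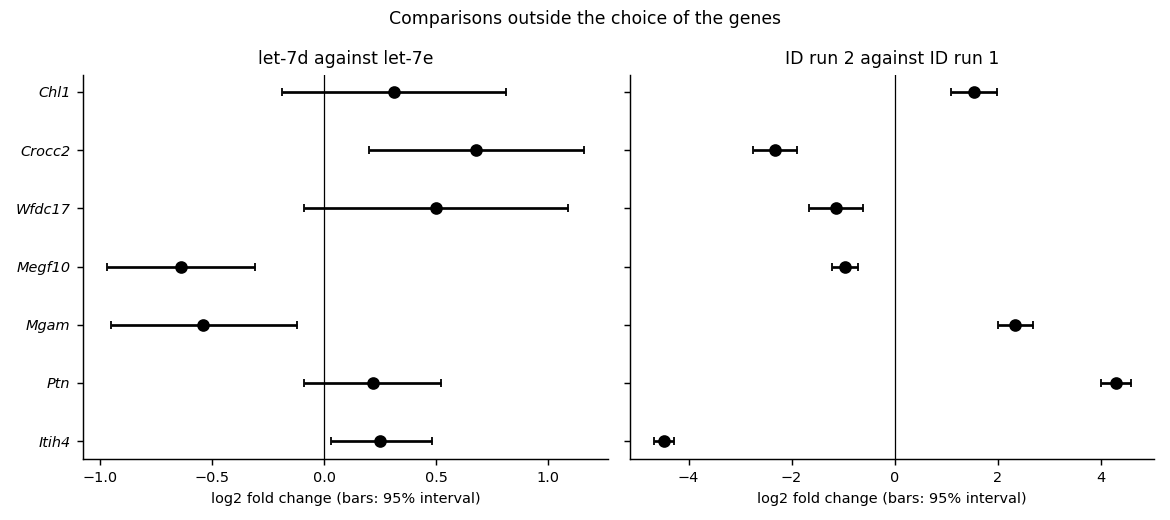
Log2 differences with 95% intervals for the 7 genes, let-7d against let-7e and ID run 2 against ID run 1. The mimic differences lie between -0.64 (Megf10) and 0.68 (Crocc2), while the run differences reach 4.29 for Ptn and -4.48 for Itih4.

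Once the difference between runs was taken out by centring log2 CPM within each ID run, the 7 genes varied in common across the 12 libraries. Pearson's r was 0.93 between Chl1 and Wfdc17, 0.89 between Ptn and Itih4, 0.84 between Megf10 and Mgam and -0.93 between Crocc2 and Megf10. All points share the 3 groups on which the genes were chosen, so these values are a description. Of 11345 genes of at least moderate level, the pattern most like Chl1 was that of Cxcl5, a neutrophil-attracting chemokine (r = 0.979), with log2 fold changes of 1.74 with let-7d and 1.40 with let-7e. Crocc2 was most like Pros1, protein S, a bridging ligand between dying cells and phagocyte receptors (0.984). Wfdc17 was most like Txndc12, a thioredoxin-domain protein of the endoplasmic reticulum (0.953).

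For the genes that were lower, Megf10 was most like Atxn7l3, a subunit of the SAGA deubiquitinase module (r = 0.982), Ccn4, a secreted matricellular protein (0.982), and the integrin subunit Itgav (0.979). Mgam was most like the kinase Riok3 (0.957), Ptn like Pctp, a phosphatidylcholine transfer protein (0.963), and Itih4 like Parp1, a poly(ADP-ribose) polymerase of DNA repair (0.975). The transcript AI427809 was among the 3 most like genes of both Ptn (0.951) and Itih4 (0.959).

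The other genes of each family and pathway were then counted by edgeR's test over all genes, called at an adjusted p under 0.05. Over all genes the median log2 fold change was -0.0022 with let-7d and -0.0019 with let-7e. With let-7d 16.2% of all genes were called (6.41% higher, 9.81% lower) and with let-7e 9.50% (3.81% higher, 5.69% lower), which is the background for each list count. Of 10 neural adhesion genes counted beside Chl1, 0 rose and 2 fell with let-7d (median -0.10), namely Sema3a, a repelling axon guidance cue (-0.37 ± 0.10, adjusted p = 0.0242), and Ncam1 (-0.27 ± 0.076, adjusted p = 0.0247). With let-7e 0 of 10 were called (median -0.04), with 0 at an unadjusted p under 0.05 and 0 by DESeq2 or limma-voom. With let-7d 1 had an unadjusted p under 0.05 upward and DESeq2 and limma-voom called 0 upward. In ID run 1 alone, however, the adhesion molecules Nrcam and Alcam, 2 genes, were called higher with each mimic and 0 lower. The 2 falls dropped to 0 without control replicate 1 or let-7d replicate 3, and to 1 without control replicate 3 or 4 or let-7d replicate 1 or 2.

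Among 10 rootlet and centrosome linker genes beside Crocc2, 3 rose and 0 fell with let-7d (median 0.20). These were Ninl, a centrosomal ninein-like protein (0.32 ± 0.077, adjusted p = 0.00937), Lrrc45, a linker fibre protein (0.25 ± 0.067, adjusted p = 0.0192), and Nek2, the kinase that loosens the linker (0.32 ± 0.091, adjusted p = 0.0243). The count was 1 without control replicate 1 or let-7d replicate 1. With let-7e 0 rose, with 3 at an unadjusted p under 0.05 and 0 by DESeq2 or limma-voom, and Odf2, an outer dense fibre and centriole protein, fell (-0.47 ± 0.064, adjusted p = 0.000243). Without control replicate 4, 1 gene rose with let-7e.

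Of 6 WAP-domain and related inhibitors beside Wfdc17, 3 rose with let-7d (median 0.33) and 2 with let-7e (median 0.46), and 0 fell with either, at an unadjusted p under 0.05 or by DESeq2 or limma-voom. DESeq2 also called 3 rises with let-7d and 2 with let-7e, and limma-voom 2 and 1. Slpi, the secretory leukocyte protease inhibitor, rose with both, at 4.03 ± 0.380 CPM with let-7d and 3.43 ± 0.498 with let-7e, against 1.87 ± 0.599 in controls (SD, n = 4). Its log2 fold change was 1.11 ± 0.18 (adjusted p = 0.000630) with let-7d and 0.87 ± 0.18 (adjusted p = 0.00616) with let-7e. Wfdc21, the next counted gene after Wfdc17 on its chromosome, had 0.49 ± 0.15 (adjusted p = 0.0350) and 0.50 ± 0.15 (adjusted p = 0.0425), and Spint2 0.57 ± 0.19 with let-7d (adjusted p = 0.0474). The let-7d count was 1 without let-7d replicate 1 or 3 or control replicate 3 or 4. The let-7e count was 1 without any of control replicates 2 to 4, let-7d replicates 1 and 2 or let-7e replicates 1, 3 and 4. Slpi kept its call in each of these fits.

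Of 24 engulfment genes beside Megf10, 1 rose and 3 fell with let-7d (median -0.04), and 0 rose and 3 fell with let-7e (median 0.0039). Both subunits of the integrin αvβ3, which binds bridging molecules on dying cells, fell. Itgb3 had -0.51 ± 0.063 (adjusted p = 6.81e-05) with let-7d and -0.43 ± 0.062 (adjusted p = 0.000424) with let-7e. Itgav had -0.42 ± 0.057 (adjusted p = 0.000139) and -0.25 ± 0.057 (adjusted p = 0.0107). Dock1, an activator of Rac in engulfment, fell with let-7d (-0.21 ± 0.053, adjusted p = 0.0124), and Pros1 rose (0.32 ± 0.060, adjusted p = 0.00182). For the rise with let-7e, 3 genes had an unadjusted p under 0.05 and DESeq2 and limma-voom called 0. By limma-voom 2 genes rose with let-7d, and the fit to ID run 1 alone gave 3 rises (let-7d) and 1 (let-7e). The count of rises with let-7d was 2 without control replicate 2 or 4, let-7d replicate 3 or let-7e replicate 3, and that with let-7e 1 without control, let-7d or let-7e replicate 3.

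The pleiotrophin and midkine pathway holds Itgav and Itgb3 as well, and these were its 2 falls among 13 genes with either mimic. Its 2 rises with either mimic were Sdc4 and Sdc1, which are 2 of its 4 syndecans, heparan sulphate carriers that bind pleiotrophin. Sdc4 had 0.33 ± 0.055 (adjusted p = 0.000795) with let-7d and 0.26 ± 0.055 (adjusted p = 0.00630) with let-7e. Sdc1 had 0.19 ± 0.051 (adjusted p = 0.0198) and 0.42 ± 0.051 (adjusted p = 0.000100). Sdc1 lost its let-7d call, leaving 1, without let-7d replicate 2 or 3 or control replicate 3. Sdc2 (0.03 with each mimic) and Sdc3 (-0.11 with let-7d, 0.01 with let-7e) were not called. The median was -0.04 with each mimic.

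Around Itih4, 18 genes of the inter-alpha-trypsin inhibitor family and of hyaluronan were counted. Some other heavy chains of the family are known to bind hyaluronan. Of the 18 genes, 2 rose and 6 fell with let-7d (median -0.09), and 2 rose and 5 fell with let-7e (median -0.13). Itih5, another heavy chain, fell with both (-0.96 ± 0.14, adjusted p = 0.000311, and -0.87 ± 0.14, adjusted p = 0.00111). Has2, which makes hyaluronan, fell with let-7d (-0.60 ± 0.082, adjusted p = 0.000176) and had -0.18 ± 0.080 with let-7e (adjusted p = 0.200). Hyal2, which cuts it, fell with both (-0.51 ± 0.083, adjusted p = 0.000662, and -0.56 ± 0.082, adjusted p = 0.000517). Ptx3, pentraxin 3, which binds heavy chains in the hyaluronan matrix, rose with both, to 184 ± 27.2 CPM with let-7d and 192 ± 25.2 with let-7e, against 121 ± 11.2 in controls (SD, n = 4). Its log2 fold change was 0.60 ± 0.064 (adjusted p = 2.37e-05 by edgeR) with let-7d and 0.66 ± 0.064 (adjusted p = 1.70e-05) with let-7e. The rises with let-7e numbered 1 without let-7e replicate 2 or 3.

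Beside Mgam, 1 of 13 alpha-glucosidase and glycogen genes rose and 4 fell with let-7d (median -0.16), and 0 rose and 4 fell with let-7e (median -0.10). The lysosomal alpha-glucosidase Gaa rose with let-7d (0.43 ± 0.087, adjusted p = 0.00322) and had 0.23 ± 0.087 with let-7e (adjusted p = 0.122). Glycogen synthase Gys1 fell with both (-0.53 ± 0.093, adjusted p = 0.00106, and -0.39 ± 0.092, adjusted p = 0.0141), as did the phosphorylase Pygb (-0.25 ± 0.045, adjusted p = 0.00133, and -0.20 ± 0.045, adjusted p = 0.00993). For the rise with let-7e, 1 gene had an unadjusted p under 0.05 and DESeq2 and limma-voom called 0. The falls with let-7d numbered 2 without control replicate 2 or let-7d replicate 1 or 3, and the rises 2 without control or let-7d replicate 3. The falls with let-7e numbered 2 without control replicate 1 or 2 and 1 without let-7e replicate 1 or 2, and 1 gene rose without let-7e replicate 3.

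**Figure D5:**
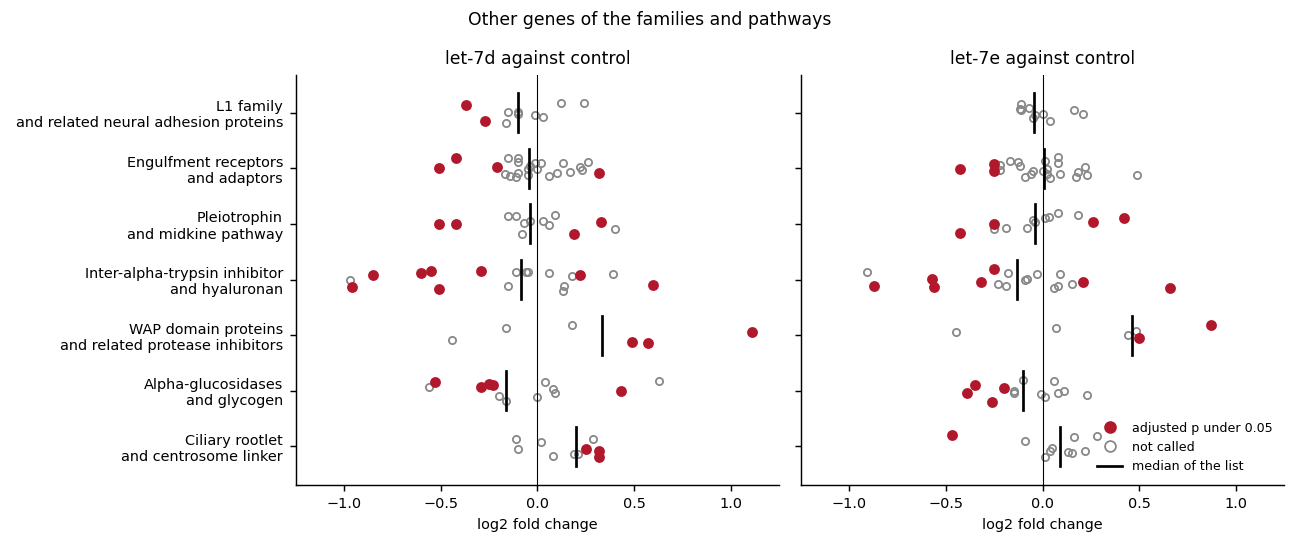
Log2 fold change of the other genes of the 7 families and pathways against control, let-7d at left and let-7e at right; filled points have an adjusted p under 0.05 in edgeR's test and bars are list medians. Filled points lie on both sides of 0 in the engulfment, pleiotrophin, hyaluronan and glycogen lists with let-7d, and Slpi (1.11 with let-7d, 0.87 with let-7e) is the highest filled point in both panels.

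Of the 14 nearest counted genes on the chromosome, before and after each of the 7, 6 were called with let-7d and 4 with let-7e in edgeR's test, beside 16.2% and 9.50% of all genes. The largest change was that of Sned1, an extracellular matrix protein gene that starts 4769 bases after the end of Crocc2 on the same strand. Sned1 rose with let-7d (0.89 ± 0.099, adjusted p = 3.33e-05) and let-7e (0.65 ± 0.099, adjusted p = 0.000646), and like Crocc2 was lower in ID run 2 (-2.13 ± 0.083, adjusted p = 4.16e-13). No exon of the 7 genes overlapped an exon of another annotated gene, but reads that run on from one gene into the next were not separated here. On the other side of Crocc2, Agxt (0.823 CPM on average) had 0.39 ± 0.32 with let-7d and -0.01 ± 0.33 with let-7e, with neither called.

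Wfdc21 changed in the direction of Wfdc17, as given above, and Ephb6, 836359 bases after Mgam, fell with let-7d (-0.59 ± 0.077, adjusted p = 0.000101) as Mgam was lower. The other called neighbours went against the gene beside them. Nek4 rose beside Itih4 with let-7d (0.37 ± 0.072, adjusted p = 0.00265) and let-7e (0.24 ± 0.072, adjusted p = 0.0465), and Mustn1, on its other side, rose with let-7d (0.28 ± 0.081, adjusted p = 0.0260). Pdzrn3 fell beside Chl1 with let-7d (-0.19 ± 0.055, adjusted p = 0.0241), and Creb3l2 rose beside Ptn with let-7e (0.20 ± 0.056, adjusted p = 0.0356). Mustn1 lost its call without control replicate 2 or 4 or let-7d replicate 3, and Pdzrn3 without control replicate 1 or 4 or let-7d replicate 1, 2 or 3. Creb3l2 lost its call without control replicate 1 or 3 or any let-7e library, and Nek4 its let-7e call without control replicate 1, 2 or 4, let-7d replicate 1, 2 or 4 or let-7e replicate 1, 2 or 4. Neither neighbour of Megf10 was called with either mimic.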

How the data were processed

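The deposited count table holds raw whole-number counts per Ensembl gene for 12 libraries. The submitters' processing notes name STAR and GRCm38.p6. Neither the read counter nor its strand setting is given in the sources used here, so reads of overlapping or antisense genes cannot be told apart. A second deposited table, named for RPKM, was not used here. The design text gives a larger n than the 4 libraries per group listed. Identifiers were matched without version to GENCODE vM21, and 15742 of 15754 had a symbol.

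edgeR 4.0.16 (R 4.3.3) was fitted to all 12 libraries by the quasi-likelihood test with TMM scaling, group and ID run as terms and 8 residual degrees of freedom; filterByExpr removed 0 genes. P-values are two-sided and adjusted after Benjamini and Hochberg over all genes, called under 0.05. DESeq2 1.42.0, limma-voom (limma 3.58.1), another scaling, a filter at a mean of 1 CPM, a replicate block, fits without the run term, by run or of 2 groups, and each library left out were alternatives. The fit was tested on simulated data. Libraries of the same group and run all differed by more than counting noise (chi-square per degree of freedom 2.37 to 10.2). The median SE of a log2 fold change against control was 0.085 (let-7d) or 0.084 (let-7e).

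The 7 genes, the 7 lists, the markers and the tests were chosen with earlier results of these data known. Named are all 7 genes, called list genes (up to 4 per list by p), chromosomal neighbours and the 3 genes most like each by Pearson's r among genes whose log2 CPM averages 2 or more; the text gives part of these. A few further list genes, Has1 and Has3 among them, are named beyond these limits. The cell type markers named were chosen after their values were seen.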

Additional observations from a re-analysis of the deposited data

Results flagged for a closer look

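Wfdc17 with let-7d had 1 library far from the other 3, at 2.53 CPM in replicate 4 of ID run 2, while the others lay between 8.81 and 9.55 CPM. The gap was past Dixon's 95% critical value for groups of 4. Chance flags about 1 in 20 such groups, and 21 were looked at (7 genes in 3 groups). That rate does not hold here, since each group mixes libraries of the 2 ID runs and Wfdc17 was 2.20-fold lower in ID run 2. Within ID run 2, replicate 4 lay beside the let-7e libraries (2.80 and 3.56 CPM), while replicate 3 stood apart at 8.81 CPM, and without replicate 3 the log2 fold change with let-7d was 1.10 in place of 1.56. The macrophage marker sum in the same library was 88.8 CPM, against 204 in replicate 3 of the same run, and the part of these cells was not tested.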

How the results depend on the processing

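The genes called with let-7d against control numbered 2555, and 7 without the ID run term and 740 in ID run 2 alone; leaving out 1 library gave 1781 to 2535. With let-7e they numbered 1496, and 0 without the run term and 197 in ID run 2 alone; leaving out 1 library gave 844 (without let-7e replicate 1) to 1606, with 874 without let-7e replicate 2. Between the mimics they numbered 24, and 122 with DESeq2, 98 on those 2 groups alone, 1 without the run term, 2 in ID run 1 alone and 1 in ID run 2 alone; leaving out 1 library gave 3 to 38. Between ID runs they numbered 12864, and 12589 to 12798 with 1 library left out. All 7 genes kept their direction against control in every alternative run. Beyond the spread between replicates moved Crocc2 with let-7d within either run, Ptn with both mimics in ID run 1 alone and Itih4 with let-7e in ID run 2 alone (-0.93).

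Replicate numbers are shared by the groups, and the deviations of same-numbered libraries correlated at -0.065 to 0.188. With 2 libraries per group and run this check cannot exclude pairing, and the main fit did not use the numbers as pairs. With the replicate block, 2530 genes were called with let-7d, 1463 with let-7e and 5 between the mimics. Depth limits Ptn in ID run 1 (8 to 37 reads) and Itih4 in ID run 2 (23 to 51 reads).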
